A study of Mus musculus with 58 samples.

Results

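Transcripts of the mitochondrial protein import machinery were followed in mouse beige, brown and white adipocytes at cold and warm ambient temperature. The members were every gene whose symbol begins with Tomm or Timm and a number, together with Samm50, Mtx1, Mtx2, Pam16, Grpel1, Pmpca, Pmpcb, Hspa9, Hspd1, Hspe1, Dnajc19, Chchd4 and Gfer. They came to 35 gene symbols in 36 rows, since Timm8a1 has 2 rows, out of 11544 symbols in 11603 rows, and all 36 rows passed the filter on low values. Of the 58 samples in the series, 22 are mRNA libraries, and the 36 chromatin samples were not analysed here. All mice were C57BL/6J on chow with a 12-hour light cycle.

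Warm beige adipocytes (3 libraries) came from inguinal fat of mice kept at 23 °C, placed at 4 °C for 1 week and then moved to 30 °C for 4 weeks. Cold beige adipocytes (4 libraries) came from the same depot straight after the week at 4 °C. Warm brown (5 libraries) and cold brown (5 libraries) adipocytes went through the same 2 schedules and came from interscapular brown fat. Warm white adipocytes (5 libraries) were inguinal too, from mice that lived at 30 °C since birth, so they had never met the cold step. The mice carried NuTRAP, a reporter that puts a GFP tag on ribosomes and a label on nuclei of cells with Cre, crossed to Cre driven by the Ucp1 or the Adipoq promoter. The labels do not say which cross gave which library, nor the age or sex of the animals. mRNA was pulled down on the tagged ribosomes with an antibody to GFP, so each value reflects RNA on ribosomes of labelled cells plus whatever else came down with them. The warm animals were sampled after 4 more weeks than the cold ones, so time and temperature cannot be told apart.

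Nearly all mitochondrial proteins are made in the cytosol and imported. Precursors bind receptors of the TOM complex in the outer membrane and pass its channel. From there they go to the SAM complex for outer membrane barrels, to small TIM chaperones and the oxidative relay of Chchd4 in the intermembrane space, or to the TIM22 and TIM23 translocases of the inner membrane. An ATP-driven motor around the Hsp70 protein Hspa9 pulls matrix proteins through TIM23, the processing peptidase removes their presequence, and the Hspd1-Hspe1 chaperonin folds them. Brown and beige adipocytes hold many mitochondria, whose uncoupling protein Ucp1 turns respiration into heat, and white adipocytes hold few.

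Values are the deposited log2 CPM, the log2 of the reads of a gene after a scaling of each library that was used as deposited. They are given for the libraries of a group in replicate order. Tests are from limma across all 11603 rows with Benjamini-Hochberg adjustment at 0.05. Differences are log2, with standard errors, and compare libraries of a group that the labels call biological replicates. Sequencing depth is unknown. The antilogs of a library's values summed to between 859198 and 1104362, so the deposited values do not share a common total. These sums were 859198 to 984117 in warm beige libraries, against 986450 to 1089101 in cold beige libraries. They were 947719 to 984362 in warm brown libraries, against 1043834 to 1104362 in cold brown libraries, and 932015 to 1007545 in warm white ones. Ucp1 followed the labels, with means of 1.03 log2 CPM in warm beige, 11.34 in cold beige, 8.84 in warm brown, 12.15 in cold brown and -2.82 in warm white libraries. Cidea, a lipid droplet protein of thermogenic adipocytes, averaged 7.33 log2 CPM in warm beige, 10.14 in cold beige, 9.80 in warm brown, 10.49 in cold brown and 2.57 in warm white libraries. Rows at the lowest listed values split the libraries into a set of 10 and a set of 12 that the labels do not name, and both sets hold every group. Warm beige replicate 3 is the only warm beige library of the first set, and it had the lowest share of member reads in its group.

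Markers of other cell types differed between the groups as well. Summed over 10 endothelial markers, warm beige libraries held 569 to 890 CPM, against 172 to 361 CPM in cold beige libraries, 130 to 228 CPM in warm brown, 55.6 to 190 CPM in cold brown and 56.1 to 83.3 CPM in warm white libraries. Of these 10 markers, 8 were called higher in warm beige and 4 in warm brown adipocytes than in cold ones, and none lower. Of all rows, 36.0% were higher in beige and 41.2% in brown adipocytes, so the brown count is near the background. The 8 macrophage markers summed to 134 to 153 CPM in warm beige libraries, against 43.1 to 74.1 CPM in cold beige libraries, and to 19.2 to 28.8 CPM in warm brown libraries, against 7.63 to 12.4 CPM in cold brown libraries. Of the 8 macrophage markers, 3 were called higher with warming in beige and 3 in brown adipocytes, near those shares of all rows, and none lower. No endothelial or macrophage marker was at the lowest listed value in every library of a group. The 11 skeletal muscle markers summed to 81.2 to 349.8 CPM in warm beige libraries, against 97.1 to 142.5 CPM in cold beige libraries, and to 107.9 to 141.6 CPM in warm brown libraries, against 317.5 to 382.5 CPM in cold brown libraries. In replicate order, the muscle sums were 349.8, 320.1 and 81.19 CPM in warm beige libraries. In warm white libraries they were 51.98, 561, 45.54, 32.98 and 36.92 CPM, so replicate 2 stood far above the others. Of these 11 markers 9 were higher and 2 lower in warm than in cold beige adipocytes, with a median difference of 4.72, and 2 were higher, 3 lower and 6 not called between warm and cold brown adipocytes. The sums of cold beige and cold brown libraries rested on Des and Mb, which went against most of the list. Des averaged 4.50 log2 CPM in warm beige, 6.26 in cold beige, 6.30 in warm brown and 7.07 in cold brown libraries, and Mb averaged 0.08 log2 CPM in warm beige, 4.32 in cold beige, 4.83 in warm brown and 7.66 in cold brown libraries. The 8 general adipocyte markers summed to 9730 to 11740 CPM in warm beige libraries and 9405 to 10010 CPM in cold beige libraries. The ribosomal precursor Rn45s took 4.32% to 5.72% of the summed CPM in warm beige libraries, against 0.436% to 1.15% in cold beige libraries, and 2.06% to 2.41% in warm white ones. The part of these differences in the results below was not tested.

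Most import transcripts fell with warming in beige and in brown adipocytes, and for 27 members the change was more negative in beige by the test of the difference. Of the 36 rows, 34 were lower and 1 was higher in warm beige than in cold beige adipocytes, when 36.9% of all rows were called lower and 36.0% higher. In warm brown against cold brown adipocytes 27 were lower and 4 were higher, when 30.1% of all rows were lower and 41.2% higher. The median member changed by -1.30 in beige and -0.45 in brown adipocytes, and the median of all rows by 0.03 in beige and 0.13 in brown adipocytes. At least a 2-fold drop was reached by 21 members in beige (17.3% of all rows) and by 5 in brown adipocytes (7.70% of all rows). In 31 members every warm beige library lay below every cold beige library (33.5% of all rows), and in 25 every warm brown library lay below every cold brown library (27.6% of all rows). In these bulk libraries, fewer cells of a type and less RNA per cell cannot be told apart. Other scalings kept the direction of both medians, at -1.08 to -1.26 in beige and -0.30 to -0.56 in brown adipocytes, while the median of all rows moved by up to 0.22. With a common total 20 members were lower and 6 higher in warm brown adipocytes, and the part of calls that were higher rose over all rows too. Here and below, counts within the 2 library sets stand without the share of all rows in each set, so their background is not known. Within the 2 library sets taken apart, 32 and 33 members were lower and 0 and 1 higher in warm beige adipocytes, and 16 and 24 were lower and 2 and 3 higher in warm brown adipocytes.

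As a share of all summed CPM, the members took 0.298% to 0.363% in warm beige libraries, against 0.606% to 0.719% in cold beige libraries. They took 0.495% to 0.533% in warm brown libraries, against 0.638% to 0.649% in cold brown libraries, and 0.250% to 0.293% in warm white libraries. The shares of the 5 groups did not overlap except between cold beige and cold brown, with warm beige just above warm white. As summed CPM of the members, warm beige (2563 to 3521) and warm white libraries (2446 to 2850) did overlap. Much of these sums came from Hspa9 and Hspd1. They averaged 1070 and 475 CPM in warm beige and 820 and 311 CPM in warm white libraries, so the shares say little of most members. Of the 36 rows, 27 were lower in both kinds of adipocyte, 5 were lower in beige and not called in brown, and 2 were lower in beige and higher in brown. Tomm34 was higher in both, and Tomm7 was higher in brown and not called in beige.

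**Figure D1:**
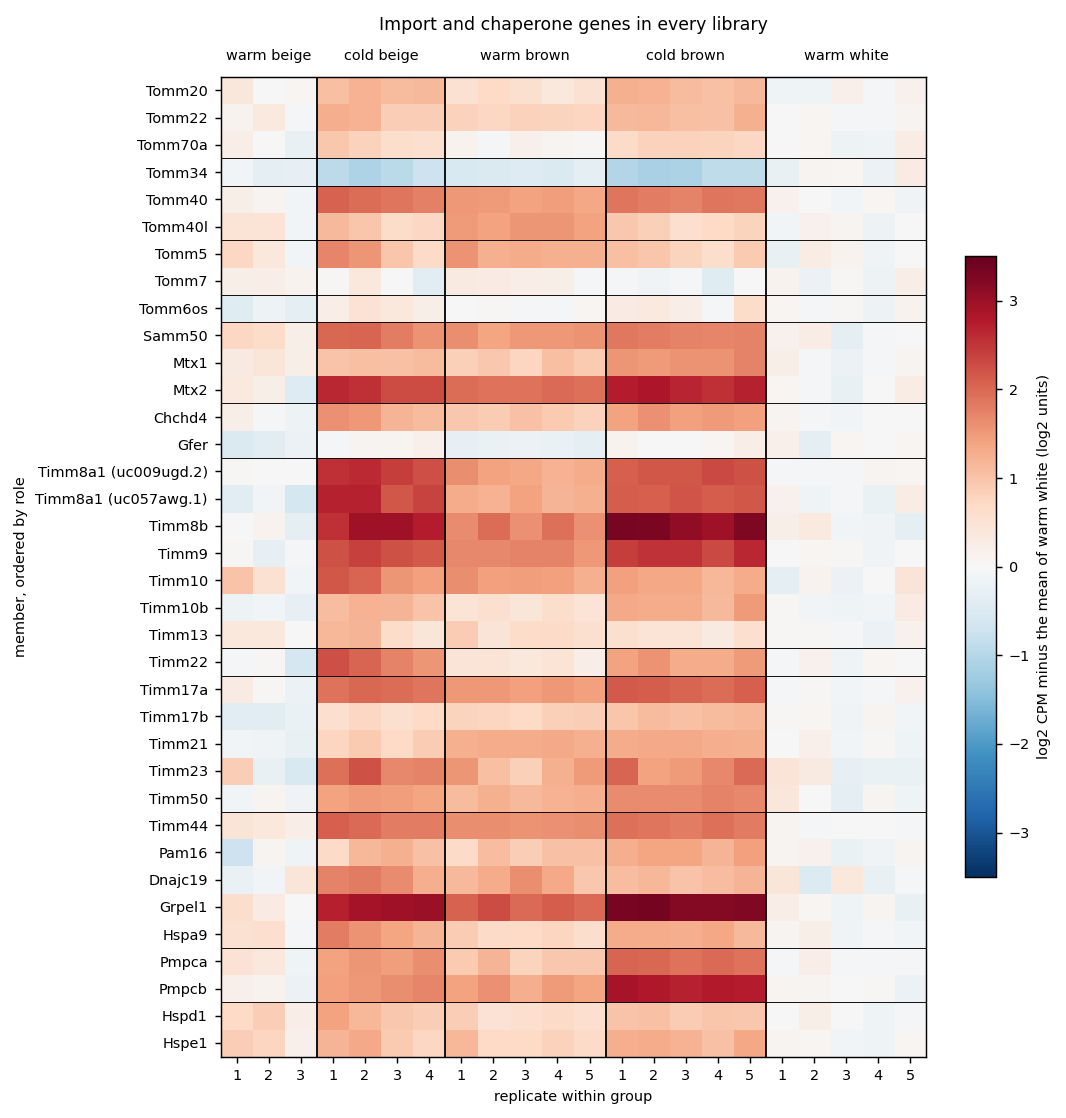
Heat map of the 36 members (rows, ordered by role) in the 22 libraries (columns, by replicate within group), as log2 CPM minus the member's mean over warm white libraries. Red marks values above warm white and blue values below it. Cold beige, warm brown and cold brown libraries are red for most members, the 3 warm beige libraries are near the warm white ones, and Tomm34 runs the other way.

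Members that move together were set beside their promoter letters. RefSeq promoter windows (GRCm38.p6, 250 bases before to 50 after each gene's start) existed for 31 of the 35 symbols, and 7 motifs were searched on both strands. Counts are of genes, and a gene with several windows counted once if any matched. The ETS motif CCGGAAG was found for 14 of the 31 members with a window (45.2%). The shares were 9.93% of all 27025 genes with a window and 20.3% of the 8620 such genes in the table. The NRF1 motif GCGCANGCGC was found for 16.1% of members, 5.19% of all genes and 12.1% of those in the table. The nuclear receptor (ERR) motif AAGGTCA was found for 16.1% of members, 5.38% of all and 3.83% of those in the table, and the YY1 motif AANATGGC for 12.9%, 6.96% and 10.3%. The heat shock element GAANNTTCNNGAA was in the windows of Hspd1, Hspe1 and Timm9 (9.7%, against 0.662% of all and 0.592% of those in the table). One window of Hspd1 shares 285 bases with that of Hspe1, and these hold the heat shock, ETS and ERR matches of Hspe1. The same letters therefore count for both genes in the member shares of these motifs. The cAMP response element TGACGTCA and the amino acid response element TTGCATCA were found for none of the 31 members. They were found for 2.03% and 1.03% of all genes and 3.72% and 0.708% of those in the table.

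Printed here are 6 windows with matches in capitals. They stand for members with large drops in beige adipocytes (Timm8b, Grpel1, Mtx2, Timm9), for a chaperonin gene that fell little (Hspe1) and for the member that rose (Tomm34). Among members with large drops, only windows with a match were printed. The window of Timm8a1, whose drop was also among the largest, held none of the 7 motifs and was left out. A match describes the letters and is neither a binding site nor a cause. Hspe1 lies at chr1:55087898-55088197 on the plus strand and holds heat shock elements that begin 89 and 84 bases before the start and overlap each other, ETS motifs at 80 and 77 bases before it, which overlap each other and the heat shock elements, and an ERR motif at 48 bases before it. Timm8b lies at chr9:50603651-50603950 on the plus strand, with an ERR motif 94 and an ETS motif 12 bases before the start and an NRF1 motif 18 bases after it. Grpel1 lies at chr5:36464935-36465234 on the plus strand, with an ETS motif 204 bases before the start. Mtx2 lies at chr2:74825562-74825861 on the plus strand, with ETS motifs 25 bases before and 6 bases after the start. Timm9 lies at chr12:71136626-71136925 on the minus strand, with a heat shock element 202 bases before the start. Tomm34 lies at chr2:164071120-164071419 on the minus strand, with an ETS motif 39 bases before the start. Each is given 5′ to 3′ on the strand of its gene.
Hspe1: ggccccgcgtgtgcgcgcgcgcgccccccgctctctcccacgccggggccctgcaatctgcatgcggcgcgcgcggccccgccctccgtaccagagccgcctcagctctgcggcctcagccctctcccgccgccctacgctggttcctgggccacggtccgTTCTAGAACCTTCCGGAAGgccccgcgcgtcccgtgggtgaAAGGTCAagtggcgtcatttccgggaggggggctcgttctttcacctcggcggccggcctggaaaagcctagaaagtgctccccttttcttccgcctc
Timm8b: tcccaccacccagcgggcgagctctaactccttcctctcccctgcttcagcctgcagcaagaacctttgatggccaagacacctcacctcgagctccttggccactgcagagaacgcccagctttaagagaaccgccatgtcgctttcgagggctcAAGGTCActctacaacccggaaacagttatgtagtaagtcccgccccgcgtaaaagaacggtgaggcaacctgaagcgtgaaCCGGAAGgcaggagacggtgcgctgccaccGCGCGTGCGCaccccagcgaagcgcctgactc
Grpel1: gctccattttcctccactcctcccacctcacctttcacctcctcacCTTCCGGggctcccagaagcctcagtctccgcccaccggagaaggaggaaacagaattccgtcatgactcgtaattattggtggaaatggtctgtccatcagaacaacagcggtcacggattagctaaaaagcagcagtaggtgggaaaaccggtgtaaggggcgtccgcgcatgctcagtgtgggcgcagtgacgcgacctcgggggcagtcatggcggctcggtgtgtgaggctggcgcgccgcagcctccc
Mtx2: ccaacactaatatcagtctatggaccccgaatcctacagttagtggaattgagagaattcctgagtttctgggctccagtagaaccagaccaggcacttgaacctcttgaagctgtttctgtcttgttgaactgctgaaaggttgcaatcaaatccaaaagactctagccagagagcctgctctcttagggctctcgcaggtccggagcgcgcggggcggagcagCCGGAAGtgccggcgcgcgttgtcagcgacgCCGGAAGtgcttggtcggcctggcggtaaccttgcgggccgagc
Timm9: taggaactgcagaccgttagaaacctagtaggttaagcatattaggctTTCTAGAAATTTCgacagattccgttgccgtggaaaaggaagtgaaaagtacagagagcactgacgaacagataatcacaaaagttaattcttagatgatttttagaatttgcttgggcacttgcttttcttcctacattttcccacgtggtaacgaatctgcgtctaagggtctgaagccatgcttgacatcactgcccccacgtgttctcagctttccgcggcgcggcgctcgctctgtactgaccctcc
Tomm34: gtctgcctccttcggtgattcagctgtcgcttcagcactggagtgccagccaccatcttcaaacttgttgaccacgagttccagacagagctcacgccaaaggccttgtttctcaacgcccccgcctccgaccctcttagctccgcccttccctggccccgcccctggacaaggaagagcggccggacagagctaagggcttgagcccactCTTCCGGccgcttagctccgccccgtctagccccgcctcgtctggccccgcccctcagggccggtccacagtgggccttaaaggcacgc

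The 3 receptors of the TOM complex fell in both kinds of adipocyte, by less than 1 log2 unit. Tomm20, a receptor for presequences, measured 5.82, 5.44 and 5.48 log2 CPM in warm beige libraries, against 6.47, 6.63, 6.54 and 6.55 in cold beige libraries. Among brown libraries, the warm ones had 5.95, 6.11, 5.98, 5.79 and 5.94 log2 CPM, against 6.66, 6.64, 6.53, 6.45 and 6.56 in the cold ones, and warm white libraries had 5.28, 5.27, 5.61, 5.37 and 5.57. Every warm library lay below every cold library of its kind, with changes of -0.97 ± 0.099 in beige and -0.61 ± 0.082 in brown adipocytes (adjusted p = 1.09e-08 and 7.03e-07). Tomm22, the central receptor that holds the complex together, stood at 6.24, 6.46 and 6.08 log2 CPM in warm beige libraries, against 7.38, 7.35, 6.99 and 6.97 in cold beige libraries. Warm brown libraries held 6.94, 6.84, 6.93, 6.89 and 6.87 log2 CPM, against 7.25, 7.28, 7.17, 7.14 and 7.37 in cold brown libraries, and warm white libraries held 6.1, 6.18, 6.04, 6.06 and 6.22. Neither pair of groups overlapped, and Tomm22 changed by -0.91 ± 0.098 log2 units in beige and -0.35 ± 0.081 in brown adipocytes. Tomm70a, the receptor for carrier precursors handed over by cytosolic Hsp70 and Hsp90, had 7.77, 7.53 and 7.28 log2 CPM in warm beige libraries, against 8.48, 8.35, 8.15 and 8.08 in cold beige libraries. It stood at 7.65, 7.49, 7.7, 7.62 and 7.56 log2 CPM in warm brown libraries, against 8.19, 8.34, 8.35, 8.32 and 8.27 in cold brown libraries, and at 7.54, 7.6, 7.36, 7.37 and 7.79 in warm white ones. Its changes were -0.74 ± 0.11 in beige and -0.69 ± 0.092 in brown adipocytes, again with no overlap, and the warm libraries of all 3 adipocyte kinds lay within a common range.

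Tomm34, a cytosolic co-chaperone that binds Hsp70 and Hsp90 and precursors, ran against the rest. It measured 4.78, 4.58 and 4.59 log2 CPM in warm beige libraries, against 3.97, 3.8, 3.95 and 4.15 in cold beige libraries. Its log2 CPM was 4.35, 4.37, 4.43, 4.39 and 4.54 in warm brown, against 3.86, 3.74, 3.79, 4.01 and 4.0 in cold brown, and 4.64, 4.99, 4.96, 4.67 and 5.18 in warm white libraries. All warm libraries lay above all cold libraries, and Tomm34 rose by 0.68 ± 0.12 in beige (1.60-fold, adjusted p = 2.76e-05) and by 0.54 ± 0.1 in brown adipocytes (1.45-fold, adjusted p = 5.38e-05).

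The channel gene and its paralog separated. Tomm40, the beta barrel through which precursors cross the outer membrane, stood at 5.63, 5.52 and 5.34 log2 CPM in warm beige libraries, against 7.5, 7.38, 7.3 and 7.21 in cold beige libraries. The warm brown libraries measured 6.94, 6.92, 6.84, 6.89 and 6.8 log2 CPM, against 7.32, 7.23, 7.17, 7.32 and 7.27 in the cold brown ones, and the warm white libraries 5.59, 5.43, 5.35, 5.5 and 5.3. The groups did not overlap, and Tomm40 fell to a level 3.61-fold lower in warm beige and 1.30-fold lower in warm brown than in the cold libraries of each kind (-1.85 ± 0.082 in beige and -0.38 ± 0.068 in brown). Tomm40l, a paralog of the channel, had 6.6, 6.58 and 6.02 log2 CPM in warm beige libraries, against 7.25, 7.07, 6.76 and 6.83 in cold beige libraries. Brown adipocytes had 7.6, 7.52, 7.66, 7.65 and 7.52 log2 CPM after warming, against 7.05, 6.94, 6.7, 6.81 and 6.88 in the cold, and white adipocytes 6.01, 6.27, 6.21, 5.94 and 6.13. Warm beige libraries lay below all cold beige ones (-0.58 ± 0.13, adjusted p = 0.000326), while warm brown libraries lay above all cold brown ones (0.71 ± 0.10, adjusted p = 2.59e-06).

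Of the small TOM subunits, Tomm5 moved in opposite directions in beige and brown adipocytes, and Tomm7 was not called in beige adipocytes. Tomm5 measured 5.91, 5.56 and 5.07 log2 CPM in warm beige libraries, against 6.9, 6.72, 6.16 and 5.84 in cold beige libraries. Levels were 6.76, 6.42, 6.48, 6.43 and 6.41 log2 CPM in warm brown libraries, against 6.24, 6.15, 5.95, 5.8 and 6.1 in cold brown libraries, and 4.93, 5.43, 5.31, 5.02 and 5.2 in warm white ones. Warm and cold beige libraries overlapped, with a change of -0.89 ± 0.20 (adjusted p = 0.000445), and warm brown libraries lay above cold brown ones (0.45 ± 0.17, adjusted p = 0.0195). Without warm brown replicate 1 or cold brown replicate 4 the brown change of Tomm5 was 0.39 in each case and not called (adjusted p = 0.0571 and 0.0557), and with median-of-ratios scaling it was 0.34 (adjusted p = 0.0706). Tomm7, a subunit that loosens and tightens the complex, averaged 5.84 ± 0.055 log2 CPM in warm beige and 5.66 ± 0.32 in cold beige libraries, and 5.86 ± 0.15 in warm brown and 5.52 ± 0.17 in cold brown libraries (SD). Its beige change of 0.19 was not called (95% interval -0.11 to 0.48) except without cold beige replicate 2 (0.31, adjusted p = 0.0488) and under 3 of 4 other scalings (0.30 to 0.41). Its rise of 0.34 ± 0.12 in brown adipocytes was not called without cold brown replicate 4 (0.27, adjusted p = 0.0505) or with median-of-ratios scaling (0.22, adjusted p = 0.0908). Tomm6os, a long noncoding RNA that overlaps Tomm6 and matched the naming rule, averaged 5.70 ± 0.13 in warm beige and 6.35 ± 0.14 in cold beige libraries, a change of -0.64 ± 0.11. Whether strand was used in counting is not stated, so reads of Tomm6os and Tomm6 cannot be told apart.

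The outer membrane sorting genes differed widely in how far they fell. Samm50, the barrel that inserts other beta barrels, stood at 7.58, 7.5 and 7.06 log2 CPM in warm beige libraries, against 8.88, 8.9, 8.65 and 8.42 in cold beige libraries. Among brown libraries, the warm ones had 8.49, 8.23, 8.39, 8.39 and 8.43 log2 CPM, against 8.71, 8.65, 8.59, 8.58 and 8.61 in the cold ones, and warm white libraries had 7.01, 7.11, 6.54, 6.78 and 6.86. Beige groups did not overlap and Samm50 changed by -1.33 ± 0.13 log2 units there. The brown change of -0.24 ± 0.11 was close to the threshold (adjusted p = 0.047). It was lost without any 1 of warm brown replicates 2 to 5, cold brown replicates 1 to 5, cold beige replicate 3 or warm white replicates 4 and 5 (-0.20 to -0.25, adjusted p = 0.0515 to 0.114). It was also lost under quantile normalization (-0.07, adjusted p = 0.512), with a common total (-0.09, adjusted p = 0.370) and with that total without the 20 most abundant genes (-0.11, adjusted p = 0.261). Mtx2, a metaxin that partners Samm50 on the cytosolic face, had 5.71, 5.56 and 4.91 log2 CPM in warm beige libraries, against 8.01, 7.93, 7.64 and 7.65 in cold beige libraries. Warm brown libraries held 7.31, 7.27, 7.25, 7.35 and 7.29 log2 CPM, against 8.12, 8.2, 8.02, 7.91 and 8.06 in cold brown libraries, and warm white libraries held 5.43, 5.28, 5.11, 5.37 and 5.61. Neither pair of groups overlapped, and Mtx2 was 5.33-fold lower in warm than in cold beige adipocytes (adjusted p = 7.11e-13) and 1.70-fold lower in warm than in cold brown adipocytes (adjusted p = 3.51e-06). The other metaxin, Mtx1, averaged 5.21 ± 0.11 in warm beige and 5.93 ± 0.055 in cold beige libraries, and 5.79 ± 0.11 in warm brown and 6.47 ± 0.09 in cold brown libraries (SD). Mtx1 changed by -0.72 ± 0.09 in beige and -0.68 ± 0.074 in brown adipocytes.

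In the intermembrane space, both genes of the disulfide relay fell. Chchd4, the oxidoreductase that forms disulfides in incoming proteins, measured 5.26, 4.98 and 4.88 log2 CPM in warm beige libraries, against 6.64, 6.57, 6.25 and 6.17 in cold beige libraries. It stood at 6.01, 5.95, 6.07, 5.98 and 5.85 log2 CPM in warm brown libraries, against 6.47, 6.65, 6.49, 6.54 and 6.48 in cold brown libraries, and at 5.14, 5.02, 4.97, 5.06 and 5.08 in warm white ones. Neither pair of groups overlapped, with changes of -1.37 ± 0.10 in beige and -0.55 ± 0.085 in brown adipocytes. Gfer, the sulfhydryl oxidase that reoxidises Chchd4, stood at 4.41, 4.5 and 4.69 log2 CPM in warm beige libraries, against 4.86, 5.01, 5.0 and 5.08 in cold beige libraries. Its log2 CPM was 4.63, 4.66, 4.71, 4.67 and 4.58 in warm brown, against 5.02, 4.93, 4.89, 4.98 and 5.15 in cold brown, and 5.08, 4.59, 4.98, 4.9 and 4.97 in warm white libraries. Warm libraries were again all below cold ones, and the log2 changes were -0.45 ± 0.10 in beige and -0.34 ± 0.084 in brown adipocytes. With a common total that leaves out the 20 most abundant genes neither was called (-0.23 in beige, adjusted p = 0.0868, and -0.22 in brown adipocytes, adjusted p = 0.0567), nor was the brown change with a common total over all genes (-0.19, adjusted p = 0.0984).

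The small TIM chaperones, which carry hydrophobic precursors across the intermembrane space, ranged from the largest drops of all members in beige adipocytes to a drop below 1 log2 unit. Timm8b had 3.77, 3.92 and 3.44 log2 CPM in warm beige libraries, against 6.35, 6.75, 6.75 and 6.53 in cold beige libraries. The warm brown libraries measured 5.45, 5.73, 5.39, 5.71 and 5.38 log2 CPM, against 7.1, 7.08, 6.89, 6.76 and 7.05 in the cold brown ones, and the warm white libraries 3.99, 4.13, 3.68, 3.66 and 3.48. No pair of warm and cold groups overlapped, and Timm8b was 7.39-fold lower in warm beige than in cold beige adipocytes, the largest drop of any member (adjusted p = 9.41e-14). In brown adipocytes it was 2.72-fold lower (adjusted p = 5.57e-10), also the largest drop there. Timm8a1, whose human counterpart TIMM8A is mutated in deafness-dystonia syndrome and which pairs with Timm13, has a row uc009ugd.2 that measured 2.01, 1.97 and 1.98 log2 CPM in warm beige libraries, against 4.53, 4.58, 4.38 and 4.22 in cold beige libraries. Brown adipocytes had 3.59, 3.37, 3.32, 3.19 and 3.26 log2 CPM after warming, against 4.06, 4.15, 4.14, 4.29 and 4.21 in the cold, and white adipocytes 1.92, 1.94, 1.91, 2.06 and 2.03. It changed by -2.44 ± 0.12 log2 units in beige and -0.82 ± 0.099 in brown adipocytes with no overlap. The second Timm8a1 row, uc057awg.1, stood at 0.14, 0.41 and -0.11 log2 CPM in warm beige libraries, against 3.22, 3.22, 2.68 and 2.87 in cold beige libraries. Levels were 1.83, 1.74, 1.92, 1.7 and 1.77 log2 CPM in warm brown libraries, against 2.64, 2.6, 2.72, 2.64 and 2.7 in cold brown libraries, and 0.68, 0.36, 0.49, 0.29 and 0.77 in warm white ones. This row moved the same way, by -2.85 ± 0.19 in beige and -0.87 ± 0.16 in brown adipocytes, and reads of one gene may be split between the rows.

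Timm9 and Timm10 form the chaperone that carries precursors of metabolite carriers. Timm9 had 3.94, 3.6 and 3.86 log2 CPM in warm beige libraries, against 6.12, 6.27, 6.13 and 6.05 in cold beige libraries. Among brown libraries, the warm ones had 5.56, 5.56, 5.63, 5.63 and 5.41 log2 CPM, against 6.31, 6.41, 6.42, 6.21 and 6.53 in the cold ones, and warm white libraries had 3.91, 3.96, 3.92, 3.78 and 3.88. Neither pair overlapped, and Timm9 changed by -2.34 ± 0.091 log2 units in beige (adjusted p = 9.2e-16) and by -0.82 ± 0.075 in brown adipocytes (adjusted p = 2.15e-09). Timm10 measured 5.45, 4.98 and 4.35 log2 CPM in warm beige libraries, against 6.62, 6.5, 6.01 and 5.9 in cold beige libraries. Warm brown libraries held 6.08, 5.9, 5.91, 5.88 and 5.7 log2 CPM, against 5.9, 5.82, 5.81, 5.62 and 5.76 in cold brown libraries, and warm white libraries held 4.11, 4.57, 4.25, 4.44 and 4.91. The beige groups did not overlap, and Timm10 changed by -1.33 ± 0.20 log2 units (adjusted p = 4.62e-06). Warm and cold brown libraries overlapped, and the brown change of 0.11 was not called (adjusted p = 0.565, 95% interval -0.24 to 0.46). Timm13 stood at 7.37, 7.36 and 6.97 log2 CPM in warm beige libraries, against 8.15, 8.17, 7.63 and 7.42 in cold beige libraries. It stood at 7.87, 7.45, 7.63, 7.65 and 7.56 log2 CPM in warm brown libraries, against 7.56, 7.46, 7.46, 7.31 and 7.58 in cold brown libraries, and at 7.04, 7.03, 6.95, 6.78 and 7.15 in warm white ones. Timm13 changed by -0.61 ± 0.15 log2 units in beige adipocytes with no overlap, and its brown change of 0.16 was not called (95% interval -0.095 to 0.41) except under 3 of 4 other scalings, where it was higher at 0.27 to 0.31. In Timm10 and Timm13, cold beige replicates 1 and 2 stood above replicates 3 and 4. Timm10b, which docks the chaperone on the TIM22 complex, averaged 4.35 ± 0.097 in warm beige and 5.66 ± 0.10 in cold beige libraries, and 5.05 ± 0.077 in warm brown and 5.85 ± 0.13 in cold brown libraries (SD), and fell in both (-1.32 ± 0.10 in beige and -0.80 ± 0.083 in brown).

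**Figure D2:**
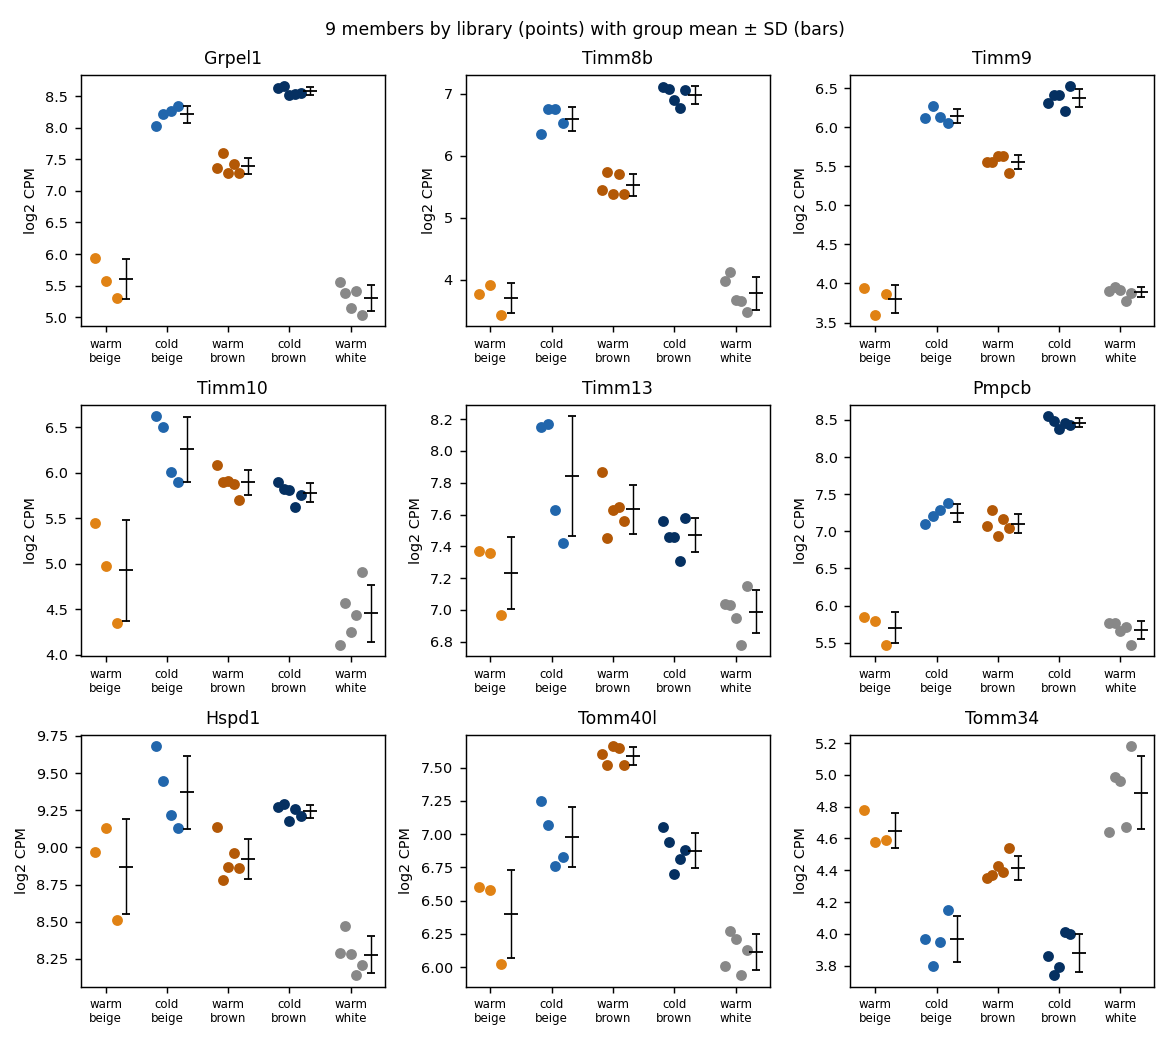
Log2 CPM of 9 members in every library (points) with the mean ± SD of each group (bars), from left to right warm beige, cold beige, warm brown, cold brown and warm white, on an axis of its own in each panel. Grpel1, Timm8b and Timm9 overlap between warm beige and warm white libraries and lie higher in warm brown ones, while Timm10 and Timm13 overlap between warm brown and cold brown. Tomm40l is higher in warm brown than in cold brown libraries, and Tomm34 is higher in warm than in cold libraries of both kinds.

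Timm22, the channel that inserts carriers into the inner membrane, had 5.07, 5.16 and 4.55 log2 CPM in warm beige libraries, against 7.38, 7.16, 6.86 and 6.68 in cold beige libraries. Its log2 CPM was 5.58, 5.6, 5.5, 5.61 and 5.37 in warm brown, against 6.55, 6.69, 6.42, 6.43 and 6.63 in cold brown, and 5.06, 5.29, 4.97, 5.2 and 5.13 in warm white libraries. No pair of warm and cold groups overlapped, and Timm22 was 4.27-fold lower in warm beige (adjusted p = 1.01e-11) and 2.02-fold lower in warm brown adipocytes (adjusted p = 7.85e-08) than in cold ones.

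All 5 genes of the presequence translocase TIM23 fell in beige adipocytes, and 3 of them in brown adipocytes. Timm23, its channel subunit, measured 2.27, 1.15 and 0.87 log2 CPM in warm beige libraries, against 3.32, 3.63, 3.08 and 3.15 in cold beige libraries. The warm brown libraries measured 2.95, 2.46, 2.23, 2.65 and 2.88 log2 CPM, against 3.44, 2.82, 2.89, 3.08 and 3.38 in the cold brown ones, and the warm white libraries 1.85, 1.71, 1.11, 1.18 and 1.16. The libraries of Timm23 scattered widely, the beige groups did not overlap (-1.86 ± 0.28, adjusted p = 3.13e-06), and the brown change of -0.49 was not called (adjusted p = 0.0629, 95% interval -0.97 to -0.0098). In brown adipocytes Timm23 was called lower under 11 of 37 alternatives. It was -0.77 under quantile normalization (adjusted p = 0.0253) and -0.60 with median-of-ratios scaling (adjusted p = 0.0216). Of the 22 fits that left out 1 library 4 called it lower, at -0.57 without warm brown replicate 1 (adjusted p = 0.0457), -0.56 without cold brown replicate 2 (adjusted p = 0.0473), and -0.49 without warm beige replicate 1 or 3 (adjusted p = 0.0241 and 0.0464).

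Timm17a and Timm17b are alternative partners of Timm23 in the translocase. Timm17a stood at 6.02, 5.78 and 5.54 log2 CPM in warm beige libraries, against 7.64, 7.75, 7.69 and 7.63 in cold beige libraries. Brown adipocytes had 7.25, 7.27, 7.19, 7.25 and 7.17 log2 CPM after warming, against 7.88, 7.86, 7.78, 7.71 and 7.84 in the cold, and white adipocytes 5.7, 5.79, 5.65, 5.69 and 5.9. Neither pair of groups overlapped, and Timm17a changed by -1.90 ± 0.084 log2 units in beige and -0.59 ± 0.07 in brown adipocytes. Timm17b had 4.21, 4.24 and 4.37 log2 CPM in warm beige libraries, against 5.18, 5.33, 5.17 and 5.3 in cold beige libraries. Levels were 5.37, 5.36, 5.3, 5.44 and 5.47 log2 CPM in warm brown libraries, against 5.58, 5.71, 5.63, 5.7 and 5.76 in cold brown libraries, and 4.64, 4.67, 4.49, 4.69 and 4.51 in warm white ones. Timm17b also changed without overlap, by -0.97 ± 0.078 in beige and -0.29 ± 0.065 in brown adipocytes. The brown call of Timm17b was lost when libraries were set to a common total (-0.14, adjusted p = 0.133), also without the 20 most abundant genes (-0.16, adjusted p = 0.0663).

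Timm50, the receptor of the translocase in the intermembrane space, measured 5.56, 5.76 and 5.54 log2 CPM in warm beige libraries, against 7.06, 7.14, 7.12 and 7.04 in cold beige libraries. Among brown libraries, the warm ones had 6.77, 6.89, 6.79, 6.88 and 6.91 log2 CPM, against 7.3, 7.3, 7.3, 7.38 and 7.32 in the cold ones, and warm white libraries had 6.04, 5.67, 5.3, 5.76 and 5.49. Both drops came without overlap, -1.47 ± 0.11 in beige and -0.47 ± 0.09 in brown adipocytes. Timm21, which links the translocase to the TOM complex, averaged 5.00 ± 0.089 in warm beige and 5.98 ± 0.10 in cold beige libraries, and 6.45 ± 0.032 in warm brown and 6.45 ± 0.034 in cold brown libraries (SD). Timm21 changed by -0.98 ± 0.076 log2 units in beige adipocytes, and its brown change of 0.002 was not called (adjusted p = 0.98, 95% interval -0.13 to 0.13) except with a common total (0.15, adjusted p = 0.0411).

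Of the import motor, all 5 genes fell in beige adipocytes, and 4 in brown adipocytes. Grpel1, the nucleotide exchange factor of Hspa9, stood at 5.93, 5.58 and 5.3 log2 CPM in warm beige libraries, against 8.02, 8.22, 8.27 and 8.34 in cold beige libraries. Warm brown libraries held 7.36, 7.6, 7.29, 7.43 and 7.29 log2 CPM, against 8.63, 8.66, 8.51, 8.53 and 8.55 in cold brown libraries, and warm white libraries held 5.55, 5.38, 5.15, 5.41 and 5.04. No warm library reached its cold group, and Grpel1 was 6.10-fold lower in warm beige (adjusted p = 2.75e-14) and 2.27-fold lower in warm brown adipocytes (adjusted p = 8.72e-10). Timm44, which anchors Hspa9 at the channel, had 6.42, 6.35 and 6.22 log2 CPM in warm beige libraries, against 8.07, 7.97, 7.78 and 7.76 in cold beige libraries. It stood at 7.6, 7.6, 7.54, 7.59 and 7.6 log2 CPM in warm brown libraries, against 7.91, 7.86, 7.78, 7.91 and 7.81 in cold brown libraries, and at 6.07, 5.9, 5.99, 5.99 and 5.94 in warm white ones. Timm44 changed by -1.56 ± 0.072 log2 units in beige and -0.27 ± 0.06 in brown adipocytes, without overlap in either, and the brown call was lost when libraries were set to a common total (-0.12, adjusted p = 0.0600).

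Dnajc19, a J protein held to be the mammalian counterpart of yeast Pam18, which in yeast stimulates the ATPase of the motor, measured 0.9, 1.05 and 1.56 log2 CPM in warm beige libraries, against 2.87, 2.96, 2.79 and 2.4 in cold beige libraries. Its log2 CPM was 2.28, 2.45, 2.77, 2.46 and 2.07 in warm brown, against 2.22, 2.29, 2.13, 2.23 and 2.32 in cold brown, and 1.56, 0.66, 1.5, 0.88 and 1.1 in warm white libraries. All warm beige libraries were below all cold beige ones, at 3.00-fold lower (adjusted p = 2e-06). The brown groups overlapped, with a change of 0.17 that was not called (adjusted p = 0.437, 95% interval -0.23 to 0.56). Pam16, its J-like partner, stood at 2.04, 2.84 and 2.61 log2 CPM in warm beige libraries, against 3.43, 3.91, 4.01 and 3.79 in cold beige libraries. The warm brown libraries measured 3.42, 3.83, 3.63, 3.78 and 3.78 log2 CPM, against 4.04, 4.15, 4.15, 3.94 and 4.18 in the cold brown ones, and the warm white libraries 2.86, 2.92, 2.52, 2.63 and 2.85. Pam16 changed by -1.29 ± 0.17 log2 units in beige and -0.40 ± 0.14 in brown adipocytes without overlap, and the brown call was lost with a common total (-0.25, adjusted p = 0.135), also without the 20 most abundant genes (-0.28, adjusted p = 0.101). Hspa9, the motor itself, also called mortalin, had 10.21, 10.26 and 9.64 log2 CPM in warm beige libraries, against 11.45, 11.25, 11.05 and 10.86 in cold beige libraries. Brown adipocytes had 10.56, 10.33, 10.36, 10.42 and 10.29 log2 CPM after warming, against 10.98, 10.97, 10.93, 11.03 and 10.82 in the cold, and white adipocytes 9.78, 9.89, 9.51, 9.61 and 9.57. Hspa9 changed by -1.12 ± 0.14 log2 units in beige and -0.55 ± 0.12 in brown adipocytes with no overlap.

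Both subunits of the processing peptidase fell in both kinds of adipocyte. Pmpcb, the catalytic subunit, measured 5.85, 5.79 and 5.47 log2 CPM in warm beige libraries, against 7.1, 7.2, 7.29 and 7.38 in cold beige libraries. Levels were 7.07, 7.28, 6.94, 7.17 and 7.05 log2 CPM in warm brown libraries, against 8.55, 8.49, 8.38, 8.46 and 8.43 in cold brown libraries, and 5.76, 5.77, 5.66, 5.71 and 5.47 in warm white ones. The groups did not overlap, and Pmpcb was 2.91-fold lower in warm beige (adjusted p = 2.4e-12) and 2.57-fold lower in warm brown adipocytes (adjusted p = 1.17e-12). Pmpca, the subunit that binds the presequence, stood at 5.4, 5.26 and 4.75 log2 CPM in warm beige libraries, against 6.3, 6.44, 6.37 and 6.52 in cold beige libraries. Among brown libraries, the warm ones had 5.81, 6.09, 5.69, 5.84 and 5.85 log2 CPM, against 6.93, 6.9, 6.81, 6.88 and 6.81 in the cold ones, and warm white libraries had 4.83, 5.13, 4.83, 4.87 and 4.84. Pmpca changed by -1.27 ± 0.12 log2 units in beige and -1.01 ± 0.097 in brown adipocytes, without overlap.

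The matrix chaperonin genes had smaller drops in beige adipocytes than the motor and peptidase genes. Hspd1, the Hsp60 barrel, had 8.97, 9.13 and 8.51 log2 CPM in warm beige libraries, against 9.68, 9.45, 9.22 and 9.13 in cold beige libraries. Warm brown libraries held 9.14, 8.78, 8.87, 8.96 and 8.86 log2 CPM, against 9.27, 9.29, 9.18, 9.26 and 9.21 in cold brown libraries, and warm white libraries held 8.29, 8.47, 8.28, 8.14 and 8.21. Warm and cold beige libraries met at 9.13, Hspd1 changed by -0.50 ± 0.13 log2 units (adjusted p = 0.00143), and the beige call was lost under quantile normalization (-0.081, adjusted p = 0.464). In brown adipocytes the groups did not overlap and the change was -0.32 ± 0.11 (adjusted p = 0.0101), which was lost under quantile normalization (-0.14, adjusted p = 0.149) and with a common total (-0.17, adjusted p = 0.0699). Hspe1, the Hsp10 lid, measured 6.41, 6.3 and 5.72 log2 CPM in warm beige libraries, against 6.74, 6.87, 6.47 and 6.29 in cold beige libraries. It stood at 6.71, 6.25, 6.24, 6.37 and 6.21 log2 CPM in warm brown libraries, against 6.81, 6.84, 6.77, 6.58 and 6.91 in cold brown libraries, and at 5.66, 5.62, 5.46, 5.4 and 5.62 in warm white ones. Warm and cold libraries overlapped in both kinds, with changes of -0.45 ± 0.15 in beige and -0.43 ± 0.12 in brown adipocytes, and the beige call was lost without warm beige replicate 3 (-0.24, adjusted p = 0.143) and with a common total without the 20 most abundant genes (-0.23, adjusted p = 0.113). Hspd1 and Hspe1 lie head to head on chromosome 1 (55077833 to 55088243 and 55088148 to 55091317, GRCm38.p6), and one of the RefSeq windows of Hspd1 shares 285 bases with the Hspe1 window printed above. Hspd1 has 5 and Hspe1 6 named pseudogenes, and Dnajc19 and Hspa9 have 1 each, whose reads may have been counted with the gene.

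**Figure D3:**
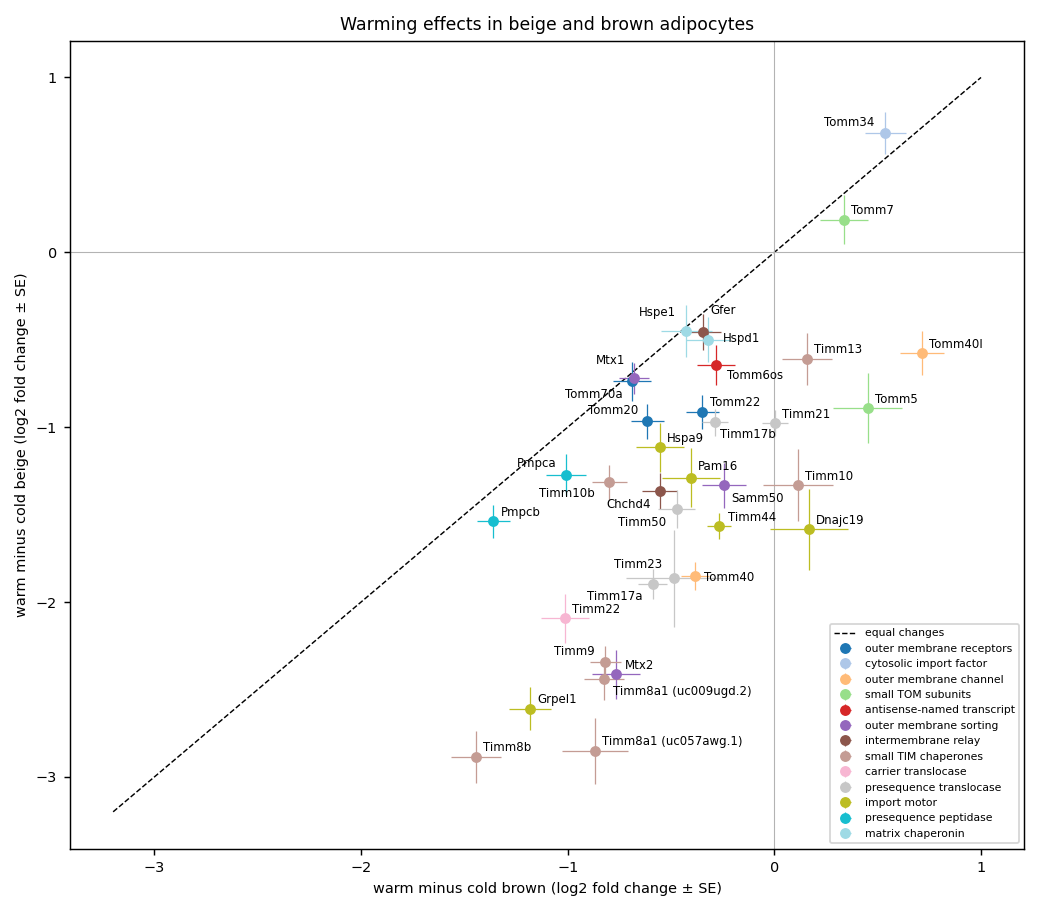
Change with warming in beige adipocytes (vertical axis, warm minus cold, log2) against that in brown adipocytes (horizontal axis) for the 36 members, with standard errors as bars and colours for roles. The dashed line marks equal changes. Most members lie below it, Pmpca, Pmpcb, Tomm70a, Mtx1, Hspd1, Hspe1 and Gfer lie near it, and Tomm5, Tomm40l, Timm10, Timm13 and Dnajc19 are right of 0 and below it.

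The change with warming differed between beige and brown adipocytes for 27 of the 36 members, all with the more negative change in beige, when 32.4% of all rows differed in that direction and 14.8% in the other. In limma 0 members had the less negative change in beige at an unadjusted p under 0.05. Within the 2 library sets taken apart 18 and 23 members differed, all in that direction, and under quantile normalization 25 did and Tomm34 differed the other way (0.39, adjusted p = 0.0370). The median difference between the 2 changes was -0.93 among members and -0.17 among all rows, and 16 members differed at least 2-fold (13.5% of all rows). The largest differences were those of Timm8a1 row uc057awg.1 at -1.98 ± 0.25 (adjusted p = 8.36e-07), Dnajc19 at -1.75 ± 0.30 (adjusted p = 4.48e-05) and Mtx2 at -1.65 ± 0.18 (adjusted p = 1.48e-07). Tomm40, the channel, differed by -1.47 ± 0.11, and its paralog Tomm40l, which moved in opposite directions, by -1.29 ± 0.16. In the inner membrane, Timm17a differed by -1.31 ± 0.11 and Timm44 by -1.30 ± 0.094.

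For 9 members a difference was not called. These were Pmpca (95% interval -0.58 to 0.053), Pmpcb (-0.44 to 0.078), Hspd1 (-0.52 to 0.16), Hspe1 (-0.43 to 0.38), Tomm70a (-0.35 to 0.25), Mtx1 (-0.28 to 0.20), Gfer (-0.38 to 0.16), Tomm7 (-0.53 to 0.23) and Tomm34 (-0.18 to 0.47). Of the called members, Hspa9 (-0.56) was lost without warm beige replicate 3 (-0.36, adjusted p = 0.0701) and with median-of-ratios scaling (-0.41, adjusted p = 0.0639). Tomm20 (-0.35) was lost without warm beige replicates 2 or 3, cold beige replicate 2, warm brown replicate 2 or cold brown replicate 4 (-0.28 to -0.33, adjusted p = 0.0511 to 0.0989), and under 3 of 4 other scalings (-0.20 to -0.26, adjusted p = 0.0924 to 0.190). Tomm6os (-0.36) was lost without warm beige replicates 1 or 3, cold beige replicates 2 or 3, any warm brown library, cold brown replicates 1 to 4 or warm white replicates 1 to 3 (-0.28 to -0.38, adjusted p = 0.05 to 0.123), and under 3 of 4 other scalings (-0.21 to -0.27, adjusted p = 0.145 to 0.256). Pmpca was gained without warm beige replicate 1 (-0.39, adjusted p = 0.0357).

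Set directly against warm brown, warm beige adipocytes had lower import transcripts. Of the 36 members 30 were lower and 0 higher, when 40.1% of all rows were lower and 35.3% higher, and the median member differed by -0.996 against -0.05 for all rows. Within the 2 library sets 29 and 26 were lower. Mtx2 differed by -1.90 ± 0.13, Timm8b by -1.82 ± 0.14 and Grpel1 by -1.79 ± 0.12 (adjusted p = 2.04e-11, 1.07e-10 and 7.97e-12). The chaperonin was not called, at -0.052 for Hspd1 (95% interval -0.31 to 0.20) and -0.21 for Hspe1 (-0.51 to 0.084). Hspd1 was called higher under quantile normalization (0.21, adjusted p = 0.0470), and Hspe1 lower within the first library set (-0.76, adjusted p = 0.0159). In limma 0 members were higher at an unadjusted p under 0.05, and no other tool was run. Tomm34 differed by 0.23 (adjusted p = 0.0703), and it was called higher under all 4 other scalings, at 0.37 under quantile normalization (adjusted p = 0.00541), 0.28 with median-of-ratios scaling (adjusted p = 0.0273), 0.27 with a common total (adjusted p = 0.0425) and 0.39 with that total without the 20 most abundant genes (adjusted p = 0.00429). It was also called higher without warm white replicate 5 (0.23, adjusted p = 0.0491). Of the members lower, Hspa9 was lost without warm beige replicate 3 (-0.16, adjusted p = 0.266), Timm13 without the same library (-0.27, adjusted p = 0.123) and Tomm6os without warm beige replicate 1 (-0.27, adjusted p = 0.0579). With a common total without the 20 most abundant genes Hspa9 (-0.20, adjusted p = 0.102), Timm13 (-0.24, adjusted p = 0.0694) and Tomm6os (-0.17, adjusted p = 0.163) were lost as well.

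Fewer members were called between cold beige and cold brown adipocytes. Of the members 9 were lower and 5 higher in cold beige, when 27.2% of all rows were lower and 34.7% higher, and the median member differed by -0.01. Within the 2 library sets 6 and 6 were lower, and 0 and 4 higher. The split depended on the scaling. It was 14 lower and 1 higher with median-of-ratios scaling, 8 and 4 under quantile normalization, 7 and 7 with a common total, and 7 and 8 with that total without the 20 most abundant genes. Over all rows 56% of calls were higher in cold beige, against 45.8% with median-of-ratios scaling. Pmpcb had the largest difference, at 2.33-fold lower in cold beige than in cold brown adipocytes (-1.22 ± 0.084, adjusted p = 7.4e-11), and its warm beige values were likewise lower than its warm brown ones (-1.40 ± 0.091). Mtx1 (-0.54 ± 0.079), Timm21 (-0.47 ± 0.066), Pmpca (-0.46 ± 0.10) and Timm17b (-0.43 ± 0.068) were also lower in every cold beige library than in any cold brown one, as were Timm8b, Grpel1 and Timm50 by -0.38, -0.36 and -0.23. With Pmpcb these were 8 members (22.2%), against 24.9% of all rows. Members were thus lower in cold beige no more often than rows in general. Dnajc19 (0.52 ± 0.20), Timm22 (0.48 ± 0.12) and Timm10 (0.48 ± 0.18) were higher in cold beige adipocytes. The count of 14 fell to 9 without cold beige replicate 1 and to 9 without cold beige replicate 2. The call of Timm10 was lost without cold beige replicates 1 or 2 or cold brown replicate 4 (0.35 to 0.44, adjusted p = 0.0567 to 0.115), and with median-of-ratios scaling (0.37, adjusted p = 0.0701). That of Dnajc19 was lost without cold beige replicates 1, 2 or 3 or cold brown replicate 3 (0.45 to 0.51, adjusted p = 0.0584 to 0.0902), with median-of-ratios scaling (0.41, adjusted p = 0.0806) and under quantile normalization (0.086, adjusted p = 0.745). That of Timm8b was lost without cold beige replicate 1 (-0.30, adjusted p = 0.0678) and under quantile normalization (-0.30, adjusted p = 0.0638). That of Timm50 was lost without any 1 of the 9 cold libraries (-0.21 to -0.25, adjusted p = 0.0526 to 0.0875) and under 3 of 4 other scalings (-0.15 to -0.19, adjusted p = 0.117 to 0.189).

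Against warm white adipocytes, 27 of the 36 members were not called in warm beige adipocytes. Of the others 6 were higher and 3 were lower in warm beige adipocytes, when 17.0% of all rows were higher and 22.4% lower, and the median member differed by 0.03 (all rows, -0.04). The 6 higher ones (16.7%) were near the share of all rows. They included the chaperonin, Hspd1 at 0.59 ± 0.12 (adjusted p = 0.00056) and Hspe1 at 0.59 ± 0.14 (adjusted p = 0.00225), each with every warm beige library above every warm white one. In 4 members (11.1%) the groups lay apart in this way, against 12.4% of all rows. Samm50 (0.52 ± 0.12), Timm44 (0.35 ± 0.069), Mtx1 (0.33 ± 0.086) and Hspa9 (0.36 ± 0.13) were higher too, and Gfer (-0.37 ± 0.097), Timm17b (-0.33 ± 0.074) and Tomm6os (-0.32 ± 0.11) were lower. Within the first library set, with its 1 warm beige library, the higher members differed less. Hspd1 was at 0.19, Hspe1 at 0.087, Samm50 at 0.067, Timm44 at 0.25, Mtx1 at 0.14 and Hspa9 at -0.11 there. Of the members with the largest falls on warming, Timm8b differed from warm white by -0.078 (95% interval -0.37 to 0.21), Timm9 by -0.09 (-0.27 to 0.09), Mtx2 by 0.033 (-0.24 to 0.31) and Grpel1 by 0.30 (0.051 to 0.54, adjusted p = 0.0512).

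The count of 9 depended on the scaling and the libraries. It was 19 under quantile normalization (13 higher, 6 lower) and 14 with a common total that leaves out the 20 most abundant genes, all higher. It was 0 within the first library set, which has 1 warm beige library and where the median member was lower (-0.18). Within the second set 14 members were higher and 2 lower. Hspa9 was lost without warm beige replicate 1 or 2 (0.28 and 0.25, adjusted p = 0.154 and 0.200) and without warm white replicates 3, 4 or 5 (0.32 to 0.35, adjusted p up to 0.0741), and Tomm6os without warm beige replicates 1 or 3 or warm white replicate 5 (-0.26 to -0.31, adjusted p up to 0.104). Without warm beige replicate 3, Timm10 (0.76, adjusted p = 0.00353), Tomm40l (0.48, adjusted p = 0.00230), Pmpca (0.43, adjusted p = 0.00153) and Tomm5 (0.56, adjusted p = 0.0369) were called higher. Grpel1 was called higher without the same library (0.45, adjusted p = 0.00624) and without cold beige replicate 1, warm brown replicate 2 or warm white replicates 1 or 4 (0.30 to 0.36, adjusted p = 0.0211 to 0.0480). Under all 4 other scalings Grpel1 (0.31 to 0.40), Tomm40l (0.30 to 0.39) and Timm10 (0.49 to 0.57) were called higher. Tomm6os was not called under 3 of 4 other scalings (-0.21 to -0.26), and Gfer (-0.27) and Timm17b (-0.22) were not called with the total without the 20 most abundant genes. Warm white animals had a different temperature history, which cannot be told apart from the adipocyte kind.

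The other 3 groups stood well above warm white. Warm brown adipocytes had 31 members higher and 2 lower (40.9% and 38.1% of all rows), with a median of 1.08, led by Grpel1 at 2.09 ± 0.10 and Mtx2 at 1.93 ± 0.12. The lower ones were Tomm34 (-0.47 ± 0.1) and Gfer (-0.25 ± 0.084). Cold beige adipocytes had 33 higher and 1 lower (38.0% and 37.2% of all rows), with a median of 1.40. Cold brown adipocytes had 33 higher and 1 lower (40.4% and 45.2% of all rows), with a median of 1.33, led by Grpel1 at 3.27 ± 0.10, Timm8b at 3.19 ± 0.12 and Pmpcb at 2.79 ± 0.079. Tomm34 was the lower member in both cold groups (-0.92 ± 0.11 in cold beige and -1.01 ± 0.1 in cold brown adipocytes). These comparisons share the warm white libraries.

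**Figure D4:**
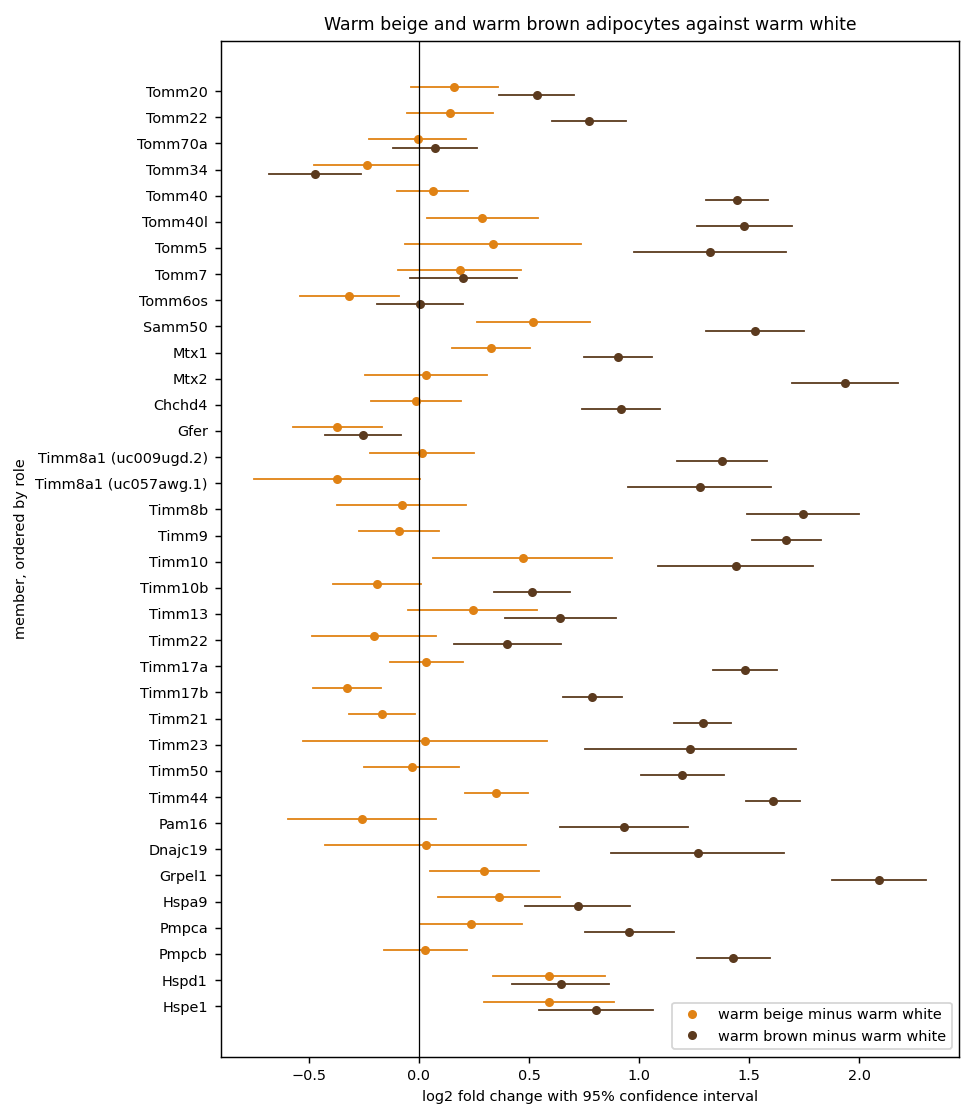
Difference from warm white adipocytes (horizontal axis, log2, point and 95% confidence interval) of the 36 members (vertical axis, by role) in warm beige (orange) and warm brown (dark brown) adipocytes. Warm beige points lie between -0.37 and 0.59, and warm brown points reach 2.09 for Grpel1 and lie well to the right for all but a few members such as Tomm34, Tomm70a, Tomm7, Tomm6os and Gfer.

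Most other genes of mitochondrial protein handling that were listed also fell with warming in beige adipocytes. A mixed list held genes of presequence trimming and inner membrane insertion, and J proteins such as Dnajc15 and Dnajc11. Of its 12 measured genes, 12 were lower in warm than in cold beige adipocytes. In warm against cold brown adipocytes 7 were lower and 1 higher. Of all rows, 36.9% were lower and 36.0% higher in beige, and 30.1% lower and 41.2% higher in brown adipocytes. The medians were -1.20 in beige and -0.28 in brown adipocytes, beside the 0.03 and 0.13 of all rows. Oxa1l, the insertase of the inner membrane, changed by -2.43 ± 0.099 log2 units in beige and -0.65 ± 0.082 in brown adipocytes. Dnajc15, a relative of Dnajc19, changed by -2.01 ± 0.088 in beige and -0.69 ± 0.073 in brown adipocytes. Dnajc11, a J protein tied to the MICOS complex, changed by -2.09 ± 0.11 in beige and -1.06 ± 0.091 in brown adipocytes. The aminopeptidase Xpnpep3 changed by -1.45 ± 0.12 in beige and -0.43 ± 0.10 in brown adipocytes.

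All 5 matrix chaperones and co-chaperones outside the member list fell in beige adipocytes (median -1.18), where 36.9% of all rows were lower. In brown adipocytes 2 fell, 1 rose (Trap1) and 2 were not called (median -0.12), which with 30.1% of all rows lower and 41.2% higher is near the background. Dnaja3, the J protein partner of Hspa9, changed by -2.44 ± 0.081 log2 units in beige and -1.12 ± 0.067 in brown adipocytes. Grpel2, the paralog of Grpel1, changed by -1.23 ± 0.11 in beige and -0.58 ± 0.093 in brown adipocytes. Clpx, the unfoldase of the matrix protease ClpXP, changed by -1.18 ± 0.13 log2 units in beige adipocytes and had -0.12 in brown (adjusted p = 0.291), and Hscb, which serves iron-sulfur assembly, changed by -0.87 ± 0.20 log2 units in beige adipocytes and had -0.10 in brown (adjusted p = 0.592).

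The 13 mitochondrial proteases and prohibitins were all lower in warm beige adipocytes (median -0.86, with 36.9% of all rows lower), and 10 were lower in warm brown adipocytes (median -0.45, with 30.1% of all rows lower). Of the prohibitins, which ring the inner membrane proteases, Phb changed by -2.70 ± 0.095 log2 units in beige and -1.33 ± 0.079 in brown adipocytes. Phb2 changed by -1.95 ± 0.08 in beige and -0.68 ± 0.067 in brown adipocytes. Clpp, the proteolytic partner of Clpx, changed by -1.73 ± 0.11 log2 units in beige and -1.17 ± 0.087 in brown adipocytes, and Afg3l2, a matrix-facing AAA protease, by -1.72 ± 0.11 in beige and -0.25 ± 0.089 in brown adipocytes. Of 12 genes of the cristae organising MICOS complex and the outer membrane porins, 11 were lower in warm beige adipocytes (median -1.47), and 6 were lower and 1 higher in warm brown adipocytes (median -0.41), beside the same shares of all rows. Apoo, a MICOS subunit, changed by -3.58 ± 0.37 log2 units in beige adipocytes and had -0.64 in brown (adjusted p = 0.0672). Immt, the core MICOS subunit, changed by -2.16 ± 0.12 in beige and -0.72 ± 0.096 in brown adipocytes. Its partner Chchd3 changed by -2.17 ± 0.092 in beige and -0.77 ± 0.076 in brown adipocytes. Mtch2, an outer membrane insertase, changed by -2.32 ± 0.084 in beige and -1.24 ± 0.069 in brown adipocytes.

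Cytosolic chaperones moved in mixed directions. Lower genes were somewhat more frequent than among all rows, and higher genes less frequent, most clearly in brown adipocytes. Of 20 measured genes, 9 were lower, 5 higher and 6 not called in warm beige adipocytes (median -0.21), and 8 were lower, 2 higher and 10 not called in warm brown adipocytes (median -0.082). Of all rows, 36.9% were lower and 36.0% higher in warm beige, and 30.1% lower and 41.2% higher in warm brown adipocytes. The cytosolic chaperones named next all fell in beige adipocytes, and the 5 that rose there are not named. Hspa8, the constitutive Hsp70 that delivers precursors, changed by -1.19 ± 0.14 log2 units in beige adipocytes and had -0.088 in brown (adjusted p = 0.492). Its J protein Dnajb1 changed by -1.10 ± 0.14 log2 units in beige and -0.35 ± 0.12 in brown adipocytes, and Hsp90aa1, the inducible Hsp90, by -0.72 ± 0.13 in beige and -1.61 ± 0.11 in brown adipocytes. Of 5 measured regulators of the mitochondrial and integrated stress responses, 3 were lower and 1 higher in beige and 2 were lower and 1 higher in brown adipocytes, too few to read against those shares. Atf5, a transcription factor that induces mitochondrial chaperones in stress, changed by -1.57 ± 0.16 log2 units in beige (adjusted p = 8.19e-09) and -1.10 ± 0.13 in brown adipocytes (adjusted p = 1.22e-07). Atf4, the factor of the integrated stress response, changed by -0.71 ± 0.17 in beige and -1.21 ± 0.14 in brown adipocytes. Trib3, a pseudokinase gene that responds to Atf4, rose by 1.44 ± 0.34 in beige adipocytes.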

How the data were processed

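The authors deposited 1 table of log2 CPM for 22 mRNA libraries, with 11603 rows of UCSC known-gene identifiers and symbols and values from -7.21 to 15.78. Per the labels' protocols, mRNA was pulled down on GFP-tagged ribosomes, depleted of ribosomal RNA with Ribo-Zero, made into Nextera XT libraries and sequenced on a HiSeq2500. Per the submitters' processing notes, the tools were featureCounts, HISAT2, edgeR and Picard, on mm10. Tool versions, the annotation used for counting and whether strand was used are not given in the sources used here. Read counts are not in the table, so depth is unknown, no count test was run, and no interval covers counting error. Reads of overlapping genes (15 of the 35 member symbols overlap another gene in RefSeq) cannot be told apart.

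Each group mean was fitted in limma 3.58.1 (R 4.3.3) with an intensity trend over all 22 libraries (17 residual degrees of freedom), with no pseudocount beyond the deposited scale. Rows with at least 1 CPM in at least 3 libraries were kept, which all 11603 rows were. p-values were adjusted over all rows by Benjamini and Hochberg's method, at 0.05. The same fit was tested on simulated data. Whether same-numbered libraries share an animal is not known, and the fit has no block. By replicate number 8 of 39 same-numbered pairs correlated above 0.1, but only beige with brown of one schedule could share an animal. By the number in the library name, all 3 such warm pairs and all 4 such cold pairs correlated positively. Of these, 2 warm and 3 cold pairs passed 0.1. The comparisons of beige with brown make no allowance for such a pairing. Alternatives were other scalings, filters, pseudocounts, library weights, a batch term for the 2 library sets, the sets apart, a replicate block, only the groups compared and leaving out each library. In the deposited values the batch term was at most 0.005 log2 units in any row. The sets were joined across depots in the way that made this value smallest, and the other join gave up to 1.9. The batch term could therefore hardly move a fold change and is no check on a set effect. The 17 residual degrees of freedom make no allowance for a set effect removed before deposit.

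Members follow a naming rule plus 13 named genes, and both they and the gene lists were chosen with earlier results of these data known. Values in every library are given for 30 genes: 26 core subunits and any other member among the 3 with the largest change in either direction, among those called, in beige warming, brown warming or their difference. From each other list, up to 4 genes with the largest change among those called may be named. Promoter windows are RefSeq's, build GRCm38.p6.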

Additional observations from a re-analysis of the deposited data

Results flagged for a closer look

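In 6 of 144 sets of libraries (36 members in each of the 4 groups with 4 or 5 libraries, where chance gives about 1 in 20) a library stood apart from the rest of its group. Pmpca had 5.13 log2 CPM in warm white replicate 2, against 4.83 to 4.87 in the other warm white libraries. Tomm5 had 6.76 in warm brown replicate 1, against 6.41 to 6.48 in the others of that group. Tomm7 had 5.61 in warm brown replicate 5, against 5.87 to 5.97 in the others, and 5.23 in cold brown replicate 4, against 5.53 to 5.65. Timm50 had 7.38 in cold brown replicate 4, against 7.3 to 7.32, and Timm44 had 7.54 in warm brown replicate 3, against 7.59 to 7.6.

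The change with warming in beige adipocytes differed from that in brown adipocytes in 27 members, by limma's test of the difference at an adjusted p under 0.05. The beige minus brown differences, in log2, were -1.98 and -1.62 for the Timm8a1 rows uc057awg.1 and uc009ugd.2, -1.52 for Timm9, -1.44 for Timm10, -1.44 for Timm8b, -0.77 for Timm13 and -0.52 for Timm10b among the small TIM chaperones. In the outer membrane they were -1.65 for Mtx2, -1.47 for Tomm40, -1.34 for Tomm5, -1.29 for Tomm40l, -1.09 for Samm50, -0.56 for Tomm22, -0.35 for Tomm20 and -0.36 for the noncoding Tomm6os. In the inner membrane they were -1.38 for Timm23, -1.31 for Timm17a, -1.08 for Timm22, -1.0 for Timm50, -0.98 for Timm21 and -0.68 for Timm17b. In the motor they were -1.75 for Dnajc19, -1.43 for Grpel1, -1.30 for Timm44, -0.88 for Pam16 and -0.56 for Hspa9, and in the relay -0.81 for Chchd4.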

How the results depend on the processing

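Over the 9 comparisons, no called member changed sign under any alternative run, except that Hspa9 in warm beige against warm white was -0.11 within the first library set (adjusted p = 0.800, against 0.36 in the full fit). In beige warming 10 member values lost their call and 4 gained one over the 37 alternatives, and 1318 kept their side of the threshold. In brown warming 49 lost and 15 gained a call, and in the difference 46 lost and 2 gained one. Brown warming had 31 calls in full and 18 within the first set. Cold beige against cold brown had 14 in full, and 6 within the first set. Warm beige against warm white had 9 in full, 19 under quantile normalization, 14 with a common total without the 20 most abundant genes, 0 and 16 within the first and second sets, and 5 with only the groups compared. Leaving out 1 library gave 34 to 36 calls in beige warming, 28 to 32 in brown warming, 24 to 27 in the difference, 28 to 31 in warm beige against warm brown, 9 to 15 in cold beige against cold brown and 7 to 13 in warm beige against warm white. It gave 34 in cold beige, 33 in warm brown and 34 in cold brown adipocytes against warm white. The share of calls that were higher, over all rows, was 49.4% in beige warming and 60.8% with the total that leaves out the 20 most abundant genes. In brown warming it was 57.7%, against 67.6% with a common total and 49.8% under quantile normalization. The replicate block gave 35 calls in beige warming, 32 in brown warming and 27 in the difference, and 35, 31 and 26 when library numbers were the block. In warm beige against warm brown the replicate block called Hspe1 lower (-0.26, adjusted p = 0.0468) and Tomm34 higher (0.30, adjusted p = 0.0253). Their own number was the best match in 7 of 39 pairs by replicate number and 5 of 39 by library number. All 5 were between depots of one schedule, 3 of 3 pairs for warm beige with warm brown (r 0.065 to 0.205) and 2 of 4 for cold beige with cold brown (r 0.071 to 0.35). That is a hint from the data, not from the design, and not every pair passed 0.1. The cause of these shifts was not tested. Depth is unknown, so the limit it sets could not be given.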
